A study of Rattus norvegicus with 102 samples.

Results

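The effect of cognitive impairment in hippocampal CA1, over and above that in the same animals' CA3 and dentate gyrus (DG), was examined in 24 aged male Fischer 344 rats. For each rat and gene, log2(normalized count + 1) was taken in each subfield, and the average of CA3 and DG was subtracted from CA1 to give 1 within-rat difference, and these differences were compared between 12 aged-impaired (AI) and 12 aged-unimpaired (AU) rats. The comparison used 72 libraries, all that the series holds for aged rats, and the other 30 libraries of the series came from 10 young rats, shown as a reference. The aged rats were 17 to 22 months old and the young rats 5 to 6 months. The labels name no transgene or drug. AI and AU were defined by the study from a water maze probe trial, with the lowest score of the young rats as the boundary, so the 2 groups are parts of 1 continuous score in 1 strain and 1 sex. Each library was poly-A RNA from 1 hand-dissected subfield of 1 rat, sequenced on the Ion Proton. Such tissue holds neurons, glia and vessels, and fewer cells of a type cannot be told apart from less RNA per cell.

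CA1, CA3 and DG are the main stations of the hippocampal circuit. Granule cells of the DG receive cortical input and drive CA3 pyramidal cells, whose Schaffer collaterals drive CA1, and CA1 sends the output to the subiculum and cortex. Calcium entry, release from stores and removal by pumps set whether CA1 synapses strengthen or weaken, and calcium handling and excitability of CA1 pyramidal cells are known to shift with age. A gene that moves in all subfields alike cancels in the within-rat difference, so the comparison asks which genes separated AI from AU in CA1 by a different amount than in the rest of the hippocampus.

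Several aged libraries stood apart. Reads on genes ranged from 4478984 to 21467303 in the 72 libraries, with a median of 9573090.5, and 16372 genes averaged 5 or more normalized counts. Scored for markers of CA1, CA3 and CA2, and DG, 13 of the 72 libraries did not score highest for their labelled subfield, and 9 of these were CA3. All 13 were from rats whose identifiers begin with R9 (5 AI, 6 AU), and 0 were from rats whose identifiers begin with R1 or R2 (7 AI, 6 AU). The labels do not say what these identifier series are. The paper reports rats tested in Arizona and in Florida, with a different supplier for each site. Its numbers of young and aged rats equal those of the R9 series for Arizona and those of the R1-R2 series for Florida. The labels themselves do not tie either series to a site. The library labelled CA1 of AU rat 12 lacked its defining markers, with Fibcd1 at 41.8 normalized counts against 272 to 994 in the 23 other aged CA1 libraries, and held striatal genes, with the dopamine receptor gene Drd2 at 974 against 15.1 to 291. The library labelled DG of AI rat 8 held the granule cell marker C1ql2 at 90.4 against 479 to 2697 in the other 23. The CA1 libraries of AU rats 4 and 5 and AI rat 11 and the CA3 libraries of AI rats 1 and 8 had a median correlation under 0.9 with the other libraries of their subfield (0.768 to 0.874). In this order they held reads on 15768, 15153, 15942, 15790 and 16226 genes, against a median of 18659.5 in the 72 libraries. Of the young libraries, 5 of 10 from CA3, 1 of 10 from DG and 0 of 10 from CA1 did not score highest for their labelled subfield.

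No gene passed an adjusted p of 0.05 in the main comparison (limma, 0 of 16372 genes, 0%). The smallest adjusted p was 0.374, for Necab3. At an unadjusted p under 0.05 there were 362 genes higher in AI (2.21%) and 199 lower (1.22%), and at an unadjusted p under 0.01 there were 69 and 35. Without the 5 rats that had a library of low correlation, 359 were higher and 331 lower at an unadjusted p under 0.05 by limma. The choice to leave out these rats was made after seeing the data. By edgeR on the recovered reads, 0 genes passed the adjusted threshold, with 264 higher and 161 lower at an unadjusted p under 0.05. DESeq2 on the same reads gave 0, and 356 higher and 237 lower. The median AI minus AU difference over all genes was 0.03 on the log2 scale, with 9133 of 16372 genes above 0, and the median standard error of a gene was 0.22. The genes described below are therefore those with the smallest p in each direction and the members of gene lists, given as measured values and not as calls.

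The same comparison against each other subfield alone also gave 0 genes at an adjusted p of 0.05 by limma. CA1 minus CA3 gave 292 genes higher and 138 lower at an unadjusted p under 0.05, and CA1 minus DG gave 304 and 200. Within single subfields, AI against AU gave 0 genes at the adjusted threshold in each, with 227 higher (1.39%) and 111 lower (0.678%) at an unadjusted p under 0.05 for CA1. The CA3 libraries gave 107 higher and 161 lower, and the DG libraries 152 and 144.

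The 8 genes with the smallest p among those higher in AI were Necab3, Cckbr, Tshz3, Grik3, Sowahb, Rn50_5_0791.1, Ipcef1 and Tmem163. Necab3 (ENSRNOG00000016380), an EF-hand calcium-binding protein, ranged in CA1 from 320 to 888 normalized counts in AI rats (median 525) and from 105 to 490 in AU rats (median 347). In CA3 its medians were 195 in AI and 292 in AU, and in DG 426 and 525, so the order of the groups in CA1 was opposite to that in the other subfields. The within-rat difference was 0.82 ± 0.64 (SD, n = 12) in AI and -0.38 ± 0.60 (SD, n = 12) in AU on the log2 scale. AI minus AU was 1.20 (SE 0.24, 95% interval 0.72 to 1.69), with an unadjusted p of 2.28e-05 by limma. Of the 12 AI rats, 11 lay above the AU median and 8 above the highest AU rat, and the groups overlapped.

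Cckbr, the cholecystokinin B receptor of pyramidal cells, ranged in CA1 from 87.3 to 491 (median 152) in AI and from 49.9 to 159 (median 98.3) in AU. In CA3 its medians were 103 and 114, and in DG 133 and 143. The within-rat difference exceeded the highest AU rat in 9 of 12 AI rats, and AI minus AU was 1.12 (SE 0.25, unadjusted p = 0.000111, adjusted p = 0.718). Tshz3, a zinc finger transcription factor of cortical projection neurons, ranged in CA1 from 171 to 661 (median 270) in AI and from 75.8 to 362 (median 156) in AU. Its medians were 86.1 and 104 in CA3, and 142 and 144 in DG. All 12 AI rats lay above the AU median of the within-rat difference, and AI minus AU was 1.36 (SE 0.31, unadjusted p = 0.000164).

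Grik3 encodes GluK3, a subunit of kainate-type glutamate receptors. Its CA1 counts ran from 264 to 752 (median 431) in AI and from 153 to 400 (median 274) in AU, against medians of 245 and 250 in CA3 and 327 and 302 in DG. In CA3 and DG the AI range lay mostly inside the AU range. AI minus AU of the within-rat difference was 0.87 (SE 0.20, unadjusted p = 0.000175). Ipcef1, which binds cytohesins, the exchange factors of Arf GTPases, had CA1 medians of 135 in AI and 71.7 in AU and a difference of 1.13 (SE 0.29). Tmem163, a zinc transporter found on synaptic vesicles, had CA1 medians of 127 and 69.8 and a difference of 1.14 (SE 0.29), with 11 of 12 AI rats above the AU median for both genes.

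Sowahb and Rn50_5_0791.1 were low genes whose differences rested in part on single libraries. Sowahb, an ankyrin repeat protein, had CA1 medians of 36.5 in AI and 17.3 in AU, and Rn50_5_0791.1 (ENSRNOG00000051069), which has no gene name in the table, had 32.0 and 16.8. The lowest within-rat differences of Sowahb, -4.10 and -3.67, belonged to AU rats 4 and 5, and those of Rn50_5_0791.1, -5.00 and -3.61, to AU rats 5 and 4. AI minus AU was 1.87 (SE 0.45) for Sowahb and 2.10 (SE 0.53) for Rn50_5_0791.1. Without the 5 rats that had a library of low correlation (9 AI and 10 AU rats left), these values were 1.25 and 1.28.

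**Figure D1:**
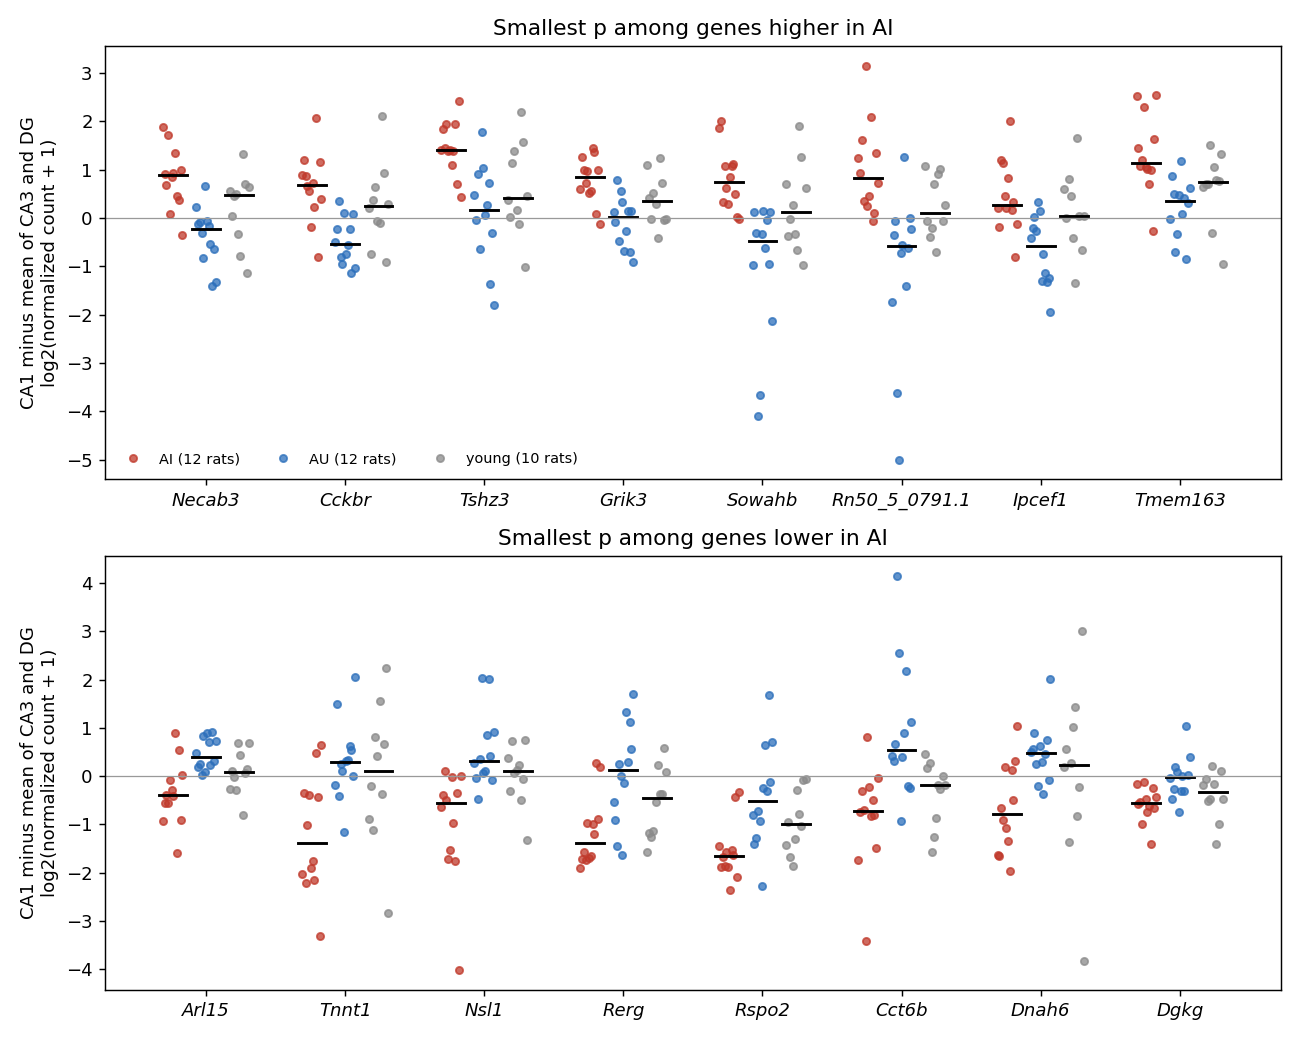
Within-rat difference (CA1 less the average of the other subfields, log2 of normalized count + 1) of the 8 genes with the smallest p in each direction, with 1 point for each rat and black bars at the group medians. In all 16 genes the AI and AU points overlap, and the young median lies between the AI and AU medians.

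The 8 genes with the smallest p among those lower in AI were Arl15, Tnnt1, Nsl1, Rerg, Rspo2, Cct6b, Dnah6 and Dgkg. Arl15, a small GTPase of the ARF-like family, ranged in CA1 from 61.1 to 223 (median 176) in AI and from 156 to 393 (median 229) in AU. The CA3 medians were 195 in AI and 167 in AU, and the DG medians 213 and 206. Of the 12 AI rats, 9 had a within-rat difference below the lowest AU rat, while AI rat 8, at 0.90, lay above 11 of the 12 AU rats. AI minus AU was -0.82 (SE 0.21, 95% interval -1.26 to -0.39, unadjusted p = 0.000576, adjusted p = 0.865).

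Rerg, a Ras-like GTPase known as an estrogen-regulated growth inhibitor, had CA1 medians of 172 in AI (104 to 357) and 368 in AU (174 to 540). In DG the order was the other way, with medians of 437 in AI and 381 in AU. Its within-rat difference gave AI minus AU of -1.20 (SE 0.34, unadjusted p = 0.00132). Rspo2, a secreted R-spondin that amplifies Wnt signalling, had CA1 medians of 175 in AI (105 to 301) and 265 in AU (164 to 558), and DG medians of 553 and 446. AI minus AU was -1.13 (SE 0.32) for Rspo2, and 10 of 12 AI rats lay below the AU median for both genes. In young rats Rspo2 was lower in CA1 than in CA3 and DG, with a median within-rat difference of -0.99, between the -1.65 of AI and the -0.52 of AU. These medians mix the identifier series. Young rats ran from -1.86 to -0.95 in R1-R2 and from -1.03 to -0.06 in R9. AU rats ran from -2.27 to -0.73 and from -0.32 to 1.68, and AI rats from -2.35 to -1.46 and from -2.09 to -0.32.

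Dgkg, diacylglycerol kinase gamma, which ends diacylglycerol signals downstream of phospholipase C, was the most abundant of the 16 genes in CA1, with medians of 2209 in AI and 2444 in AU. All 12 AI rats lay below the AU median of the within-rat difference, and AI minus AU was -0.55 (SE 0.16). In CA1 by itself the difference was -0.24 (SE 0.18), and in CA3 and DG it was 0.36 (SE 0.30) and 0.25 (SE 0.13), so each subfield added to the value. Tnnt1, slow skeletal troponin T, had CA1 medians of 26.5 in AI and 96.2 in AU, the widest ratio among the lower genes, and an AI minus AU of -1.53 (SE 0.40). Dnah6, a dynein heavy chain of motile cilia, had CA1 medians of 21.7 and 45.3 and a value of -1.14 (SE 0.33). AU rat 12, whose CA1 library held striatal genes, had the highest within-rat difference of all aged rats for both genes, at 2.05 and 2.02. The same rat was the highest of all aged rats for Rerg, at 1.69. It was the lowest for Tshz3 (-1.79), Ipcef1 (-1.95) and Grik3 (-0.90), while other rats were outermost on the AU side for the remaining leading genes.

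Nsl1, a kinetochore protein, and Cct6b, a subunit of the CCT chaperonin, were the lowest of the 16 genes, with CA1 medians of 10.9 and 17.4 for Nsl1 and 9.41 and 10.6 for Cct6b in AI and AU. Their AI minus AU values were -1.51 (SE 0.42) and -1.77 (SE 0.51). The lowest within-rat difference of Nsl1 was -4.01 in AI rat 11, and the outermost of Cct6b were -3.41 in AI rat 5 and 4.15 in AU rat 4. Without the 5 rats that had a library of low correlation the value of Cct6b was -1.12, and that of Nsl1 was -1.08.

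**Figure D2:**
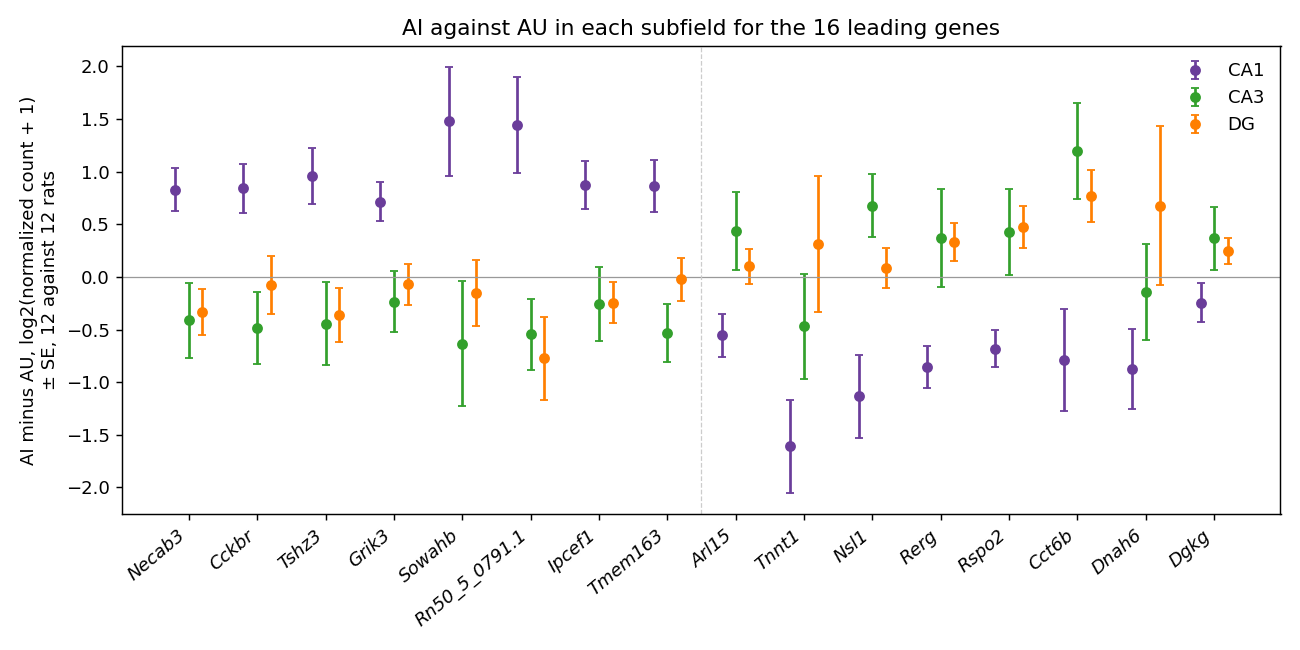
AI minus AU (log2 of normalized count + 1, 12 against 12 rats) within CA1, CA3 and DG for the same 16 genes, with bars of 1 SE. The CA1 point has the sign of the main difference in 16 of 16 genes, the DG point the other sign in 16 and the CA3 point the other sign in 14.

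Within CA1 alone, the AI against AU difference had an unadjusted p under 0.05 in 14 of the 16 leading genes, the exceptions being Cct6b and Dgkg. In CA3 it did so for 2 of the 16 genes (Nsl1 and Cct6b), and in DG for 2 (Rspo2 and Cct6b). The genes were chosen on a contrast that contains all of these values and gives CA1 more weight than either other subfield, so both the signs and these counts follow from the choice. The young median of the within-rat difference lay between those of AI and AU in all 16 genes, which were chosen for the distance between AI and AU, so that a group between them follows in large part from the choice. For Necab3 the medians were 0.88 in AI, 0.47 in young and -0.24 in AU, for Tshz3 1.41, 0.42 and 0.16, and for Rerg -1.38, -0.45 and 0.13. The young values of Rerg ran from -1.57 to -0.54 in R1-R2 rats and from -0.36 to 0.58 in R9 rats.

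In each identifier series fitted alone, all 16 genes had the same sign, which their choice on the same 24 rats largely fixes. Necab3 had an AI minus AU of 1.24 in the R9 rats and 1.09 in the R1-R2 rats, Cckbr 1.21 and 1.02, and Arl15 -0.84 and -0.77. Other genes were less alike, with Tshz3 at 1.78 and 0.92, Rspo2 at -1.59 and -0.58, Sowahb at 1.12 and 2.55 and Nsl1 at -2.12 and -1.03. The test of a difference between the series gave 0 genes at an adjusted p of 0.05 by limma, with 735 (4.49%) at an unadjusted p under 0.05, of which Rspo2 was the only one among the 16 genes (unadjusted p = 0.0403).

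**Figure D3:**
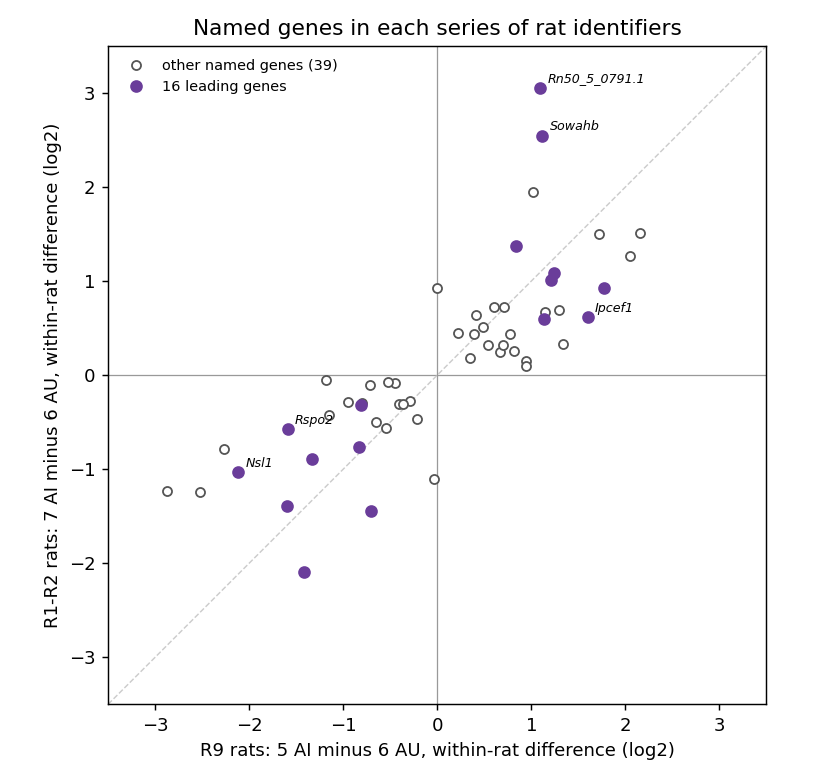
AI minus AU of the within-rat difference (log2) in the R9 rats (x axis, 5 AI and 6 AU) and in the R1-R2 rats (y axis, 7 AI and 6 AU) for the 16 leading genes and 39 other named genes, with the line of equal values dashed. All 16 leading genes, chosen on the same rats, lie in the lower left or upper right, and Nr4a2 is at -0.0045 in the R9 rats.

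The genes that the study lists or discusses for calcium, synaptic function and excitability in CA1 impairment numbered 28, and all 28 were tested. They are part of a longer list of CA1 impairment genes, which the study reports as more evenly split between higher and lower. The rest of that list was not followed here, so the signs of the 28 do not describe it. The 28 genes were chosen in part on these CA1 libraries, so their direction in CA1 is not independent evidence. The within-rat difference gives CA1 more weight than either other subfield, so its signs and median for these genes follow in large part from that choice. In the within-rat difference 23 of the 28 were below 0 and 5 above, with a median of -0.31 against 0.03 for all genes. At an unadjusted p under 0.05 by limma, 7 were lower and 3 higher, against 1.22% and 2.21% of all genes. Of the 28, 0 passed the adjusted threshold, while Adra1d passed with rats weighted by their spread (limma, adjusted p = 0.0453). In CA1 alone the median was -0.23, with 7 lower and 3 higher, while the medians in CA3 and DG were 0.07 and 0.07. The study had taken these genes from an Illumina list and retested them on the Ion Proton by DESeq2 at a 1-tailed p under 0.05. The counts here come from limma on a log scale with both tails, so they are not a repeat of that test. The median differed between the identifier series, at -0.48 in the R9 rats (4 of 28 above 0) and -0.08 in the R1-R2 rats (10 of 28 above 0), where all genes had medians of -0.02 and 0.07.

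Among these genes, Neto1, an auxiliary subunit of kainate and NMDA receptors, had within-rat differences from -2.51 to -0.54 (median -1.63) in AI and from -1.65 to 0.75 (median -0.90) in AU. AI minus AU was -0.82 (SE 0.26, unadjusted p = 0.00376), with 10 of 12 AI rats below the AU median. Gabra5, the alpha-5 subunit of extrasynaptic GABA-A receptors on pyramidal cells, ran from -2.66 to -0.17 (median -0.76) in AI and from -0.71 to 0.08 (median -0.32) in AU, with a difference of -0.59 (SE 0.19) and -0.43 without AI rat 9, which held the lowest value. Adra1d, the Gq-coupled alpha-1D adrenergic receptor, had a difference of -0.63 (SE 0.21), and 11 of 12 AI rats lay below the AU median. Prkca, protein kinase C alpha, had -0.60 (SE 0.21). The 3 other lower genes were Arpc5, a subunit of the actin-branching Arp2/3 complex, at -0.40 (SE 0.15), Cacnb2, a beta subunit of voltage-gated calcium channels, at -0.30 (SE 0.13), and Dclk2, a doublecortin-like kinase, at -0.26 (SE 0.13).

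The 3 higher members were Atp2b4, a plasma membrane calcium pump, Hcn4, a pacemaker channel, and Kcnk1, a two-pore potassium channel. Atp2b4 ran from -0.86 to 1.70 (median 0.38) in AI and from -1.87 to 1.75 (median -0.77) in AU, and 11 of 12 AI rats lay above the AU median. Its AI minus AU was 0.96 (SE 0.34) and came from CA1 (0.98, SE 0.29), with 0.02 in CA3 and 0.00 in DG. Hcn4 had 1.48 (SE 0.55), with 9 of 12 AI rats above the AU median and AU rats down to -4.89, and 0.68 without the 5 rats that had a library of low correlation. Kcnk1 had 0.50 (SE 0.20). The remaining 18 genes lay between -0.70 and 0.87. Of these, Homer3, Akap13, Sulf2, Pragmin, Dgka, Mpp3, Scube2, Hpca, Kcnab2, Dgkz, Prickle2, Rem2, Nptxr, Ksr1, Slc17a8 and Itpr1 were below 0, and Grm2 and Vav2 above.

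Over all genes tested, 9133 of 16372 were above 0, and at an unadjusted p under 0.05 by limma 2.21% were higher and 1.22% lower. The counts of each gene list below are to be read against these shares. The calcium lists held members of both signs. Of 14 voltage-gated calcium channel subunits tested, 4 were above 0, with a median of -0.09. Cacnb4, a beta subunit, had 0.48 (SE 0.20), and Cacnb2 and Cacna1i, the pore of a low-voltage channel, had -0.30 and -0.39 (SE 0.19), and the other 11 lay between -0.23 and 0.37. Of 28 genes for calcium stores, pumps and buffers, 16 were above 0 (median 0.13), with 3 higher and 0 lower at an unadjusted p under 0.05. These were Ncald, a neuronal calcium sensor, at 0.42 (SE 0.12) with all 12 AI rats above the AU median, Atp2b4, and Vsnl1, another calcium sensor, at 0.37 (SE 0.16). Of 22 calcium-dependent kinases and phosphatases, 10 were above 0 (median -0.11). Prkca and Dclk2 were the 2 with an unadjusted p under 0.05, and Camk2d, a CaM kinase II subunit, had the third smallest p at 0.56 (SE 0.28).

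Glutamate receptor genes were mostly below 0 in the within-rat difference. Of 25 subunits and auxiliary proteins of ionotropic receptors, 7 were above 0 (median -0.18), with 1 higher (Grik3) and 3 lower at an unadjusted p under 0.05. The lower ones were Neto1, the AMPA subunit gene Gria1 at -0.27 (SE 0.13), and Grik4, the GluK4 kainate subunit enriched in CA3, at -0.65 (SE 0.31), so the transcripts of GluK3 and GluK4 had opposite signs. Of 23 postsynaptic scaffold genes, 9 were above 0 (median -0.06). Lrrtm4, a postsynaptic organizer of excitatory synapses, had 0.69 (SE 0.22, 10 of 12 AI rats above the AU median), Homer3, a group 1 glutamate receptor scaffold, had -0.70 (SE 0.37), and Mpp3, a MAGUK scaffold, had -0.35 (SE 0.22). Of 35 genes of metabotropic and Gq signalling, 18 were above 0 (median 0.00), with 3 higher and 4 lower. Besides Dgkg and Adra1d, Rgs6, which speeds the turn-off of Gi and Go proteins, had 0.82 (SE 0.29, 11 of 12 AI rats above the AU median), with 1.34 in the R9 and 0.33 in the R1-R2 rats.

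Among genes of inhibition and excitability, GABA receptor subunits had 6 of 13 above 0 (median -0.06). Gabrd, the delta subunit of tonic GABA-A receptors of granule cells, had 0.56 (SE 0.22), against -0.59 for Gabra5, and Gabrb2 had 0.29 (SE 0.18). Of 44 potassium and HCN channel genes, 25 were above 0 (median 0.14), close to the share over all genes, with 5 higher and 1 lower at an unadjusted p under 0.05 (2.21% and 1.22% of all genes). Kcnj4 and Kcnj9, inward rectifiers, had 0.65 (SE 0.19) and 0.42 (SE 0.15), and the other higher genes were Hcn4, Kcnk1 and Kcnk10, a two-pore channel, at 1.03 (SE 0.44). Kcnq5, a subunit of M-type channels, was the lower one, at -0.74 (SE 0.34). Of 30 presynaptic vesicle genes, 22 were above 0 (median 0.07), led by Cplx3, a complexin, at 1.76 (SE 0.51), Syn3, a synapsin, at 0.53 (SE 0.23), and Slc17a6, the vesicular glutamate transporter VGLUT2, at 0.59 (SE 0.35). Cplx3 is also a marker of subplate and deep cortical neurons, and Slc17a6 of thalamic relay neurons.

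Immediate early genes, which neuronal activity induces within minutes, had 14 of 19 above 0 (median 0.12), with 3 higher and 0 lower at an unadjusted p under 0.05. In CA1 by itself 10 of 19 were above 0 (median 0.01), with 9 of 19 in CA3 (median -0.06) and 6 of 19 in DG (median -0.07). Without AU rat 12 and AI rat 10, whose CA1 libraries did not score highest for CA1, 11 of 19 were above 0 in the within-rat difference (median 0.05). Dusp1, a phosphatase that turns off MAP kinases, ran from 0.24 to 2.07 (median 0.82) in AI and from -0.92 to 0.80 (median 0.42) in AU, with a difference of 0.72 (SE 0.21). Btg2 had 0.52 (SE 0.20), and Nr4a2, a nuclear receptor, 0.55 (SE 0.24), with 0.92 in the R1-R2 and -0.0045 in the R9 rats. The complement, antigen presentation and lysosome genes were of both signs, with 10 of 21 above 0 (median -0.01), 0 higher and 2 lower. The lower ones were Nckap1l, a WAVE complex subunit of blood-lineage cells, at -0.33 (SE 0.13), and Gfap, the astrocyte filament, at -0.39 (SE 0.17), and Gpr183, an oxysterol receptor of immune cells, had -0.62 (SE 0.30). The median of this list was -0.26 in the R9 rats and 0.25 in the R1-R2 rats, and -0.26 with 0 of 21 above 0 without the 5 rats that had a library of low correlation. The calcium channel, calcium store, kinase, scaffold, GABA receptor and presynaptic lists also had medians of opposite sign in the 2 series.

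**Figure D4:**
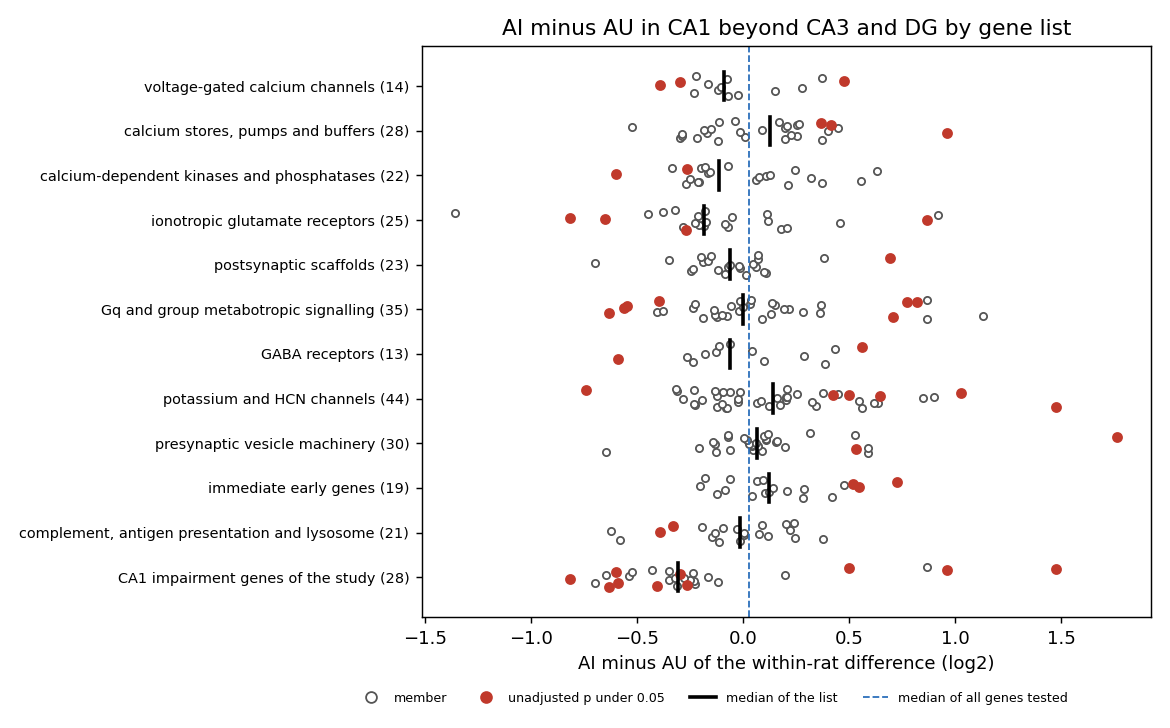
AI minus AU of the within-rat difference (log2, 12 against 12 rats) for each tested member of 12 gene lists (number tested in brackets), with the list median as a black bar and the median of all genes, 0.03, as a dashed line. Filled points have an unadjusted p under 0.05, and 0 points pass the adjusted threshold. List medians lie between -0.31, for the genes named by the study in part on these CA1 libraries, and 0.14.

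No marker of another cell type or tissue passed the adjusted threshold (limma, smallest adjusted p 0.9999 in each list). All 9 markers of subiculum and deep-layer cortex were above 0, against 9133 of 16372 genes tested, with a median of 0.93 against 0.03 for all genes. Higher in AI at an unadjusted p under 0.05 were 4 of the 9, against 2.21% of all genes. These were Cplx3, Rprm at 1.87 (SE 0.55), Tbr1 at 0.98 (SE 0.30) and Foxp2 at 1.65 (SE 0.71). Foxp2 and Rprm were low, averaging 6.30 and 20.1 normalized counts in the aged libraries, where the filter was 5. The mean level of the list, log2(normalized count + 1), gave within-rat differences from 0.18 to 2.30 (median 1.402) in AI, from -0.76 to 1.72 (median 0.54) in AU and from -0.02 to 1.97 (median 1.04) in young rats. In CA1 by itself all 9 were above 0 (median 0.29), while in CA3 and in DG 1 of 9 was. In the R9 rats alone 6 of 9 were above 0, and in the R1-R2 rats 9 of 9. The list median was 0.74 without AU rat 12 and AI rat 8, and 1.19 without the 5 rats that had a library of low correlation. The part of these markers in the values of the leading genes was not tested.

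Thalamic markers were above 0 in 7 of 7 (median 0.59), with Ntng1 at 0.82 (SE 0.26), which passed with rats weighted by their spread (limma, adjusted p = 0.0378). The highest within-rat difference of this list, 2.70, was that of AI rat 12. Granule cell markers were above 0 in 8 of 8 (median 0.55), with medians of 0.47 in CA1 and -0.32 in DG. The DG libraries of 2 AI rats (8 and 11) and 0 AU rats did not score highest for DG. The granule cell median was 0.90 in the R9 rats, 0.32 in the R1-R2 rats and 0.47 without AU rat 12 and AI rat 8, with 8 of 8 above 0 in each. Ependymal markers were below 0 in 7 of 7 (median -0.60), led by Tmem212 at -2.05 (SE 0.74), Spag17 at -1.93 (SE 0.84) and Ak7 at -1.53 (SE 0.69), genes of motile cilia as is Dnah6. Their mean level gave within-rat differences from -2.36 to 1.102 (median -0.77) in AI and from -1.89 to 2.32 (median 0.09) in AU, the highest being AU rat 12. The ependymal list median was -0.91 in the R9 rats (0 of 7 above 0) and -0.41 in the R1-R2 rats (2 of 7). Without AU rat 12 and AI rat 8 it was -0.42 (1 of 7 above 0). Their part in the Dnah6 value was not tested.

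The CA1 markers themselves gave smaller values, with 6 of 7 above 0, a median of 0.15, and 0 at an unadjusted p under 0.05, and their median was -0.11 without AU rat 12 and AI rat 8. Their mean within-rat difference ran from 1.12 to 2.78 (median 2.01) in AI and from -1.45 to 3.23 (median 2.03) in AU, the lowest being AU rat 12. The CA1 marker median was 0.36 in the R9 rats and -0.15 in the R1-R2 rats. CA3 and CA2 markers were above 0 in 2 of 11 (median -0.23), and Kcnq5 and Grik4 of this list had an unadjusted p under 0.05. Their median was -0.55 in the R9 rats (1 of 11 above 0) and 0.051 in the R1-R2 rats (7 of 11), whose libraries all scored highest for their own subfield.

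Striatal markers were above 0 in 4 of 7 (median 0.30). Without AU rat 12 and AI rat 8 their median was 0.72, and without the 5 rats that had a library of low correlation it was -0.14. Choroid plexus markers were above 0 in 2 of 6 (median -0.18), with mean within-rat differences of 7.27 in AI rat 9 and 6.29 in AU rat 10. Their sign turned with the rats used, with a median of -0.99 in the R9 rats (0 of 6 above 0), 1.11 in the R1-R2 rats (6 of 6) and 0.14 without AU rat 12 and AI rat 8. Medians of the interneuron, astrocyte, oligodendrocyte, precursor, microglia and vascular lists lay between -0.10 and 0.17, and that of 3 pituitary genes was -0.24. Of these, the oligodendrocyte median was -0.33 in the R9 rats and 0.38 in the R1-R2 rats, that of interneurons -0.01 and 0.22, that of microglia -0.16 and 0.03, that of astrocytes -0.18 and 0.07, that of vascular cells 0.09 and -0.01, and that of the pituitary genes 0.22 and -0.42. Without the 5 rats that had a library of low correlation, 0 of 10 microglial markers were above 0 (median -0.24), against 5 of 10 with all rats. No marker in the table was at 0 in all aged libraries.

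**Figure D5:**
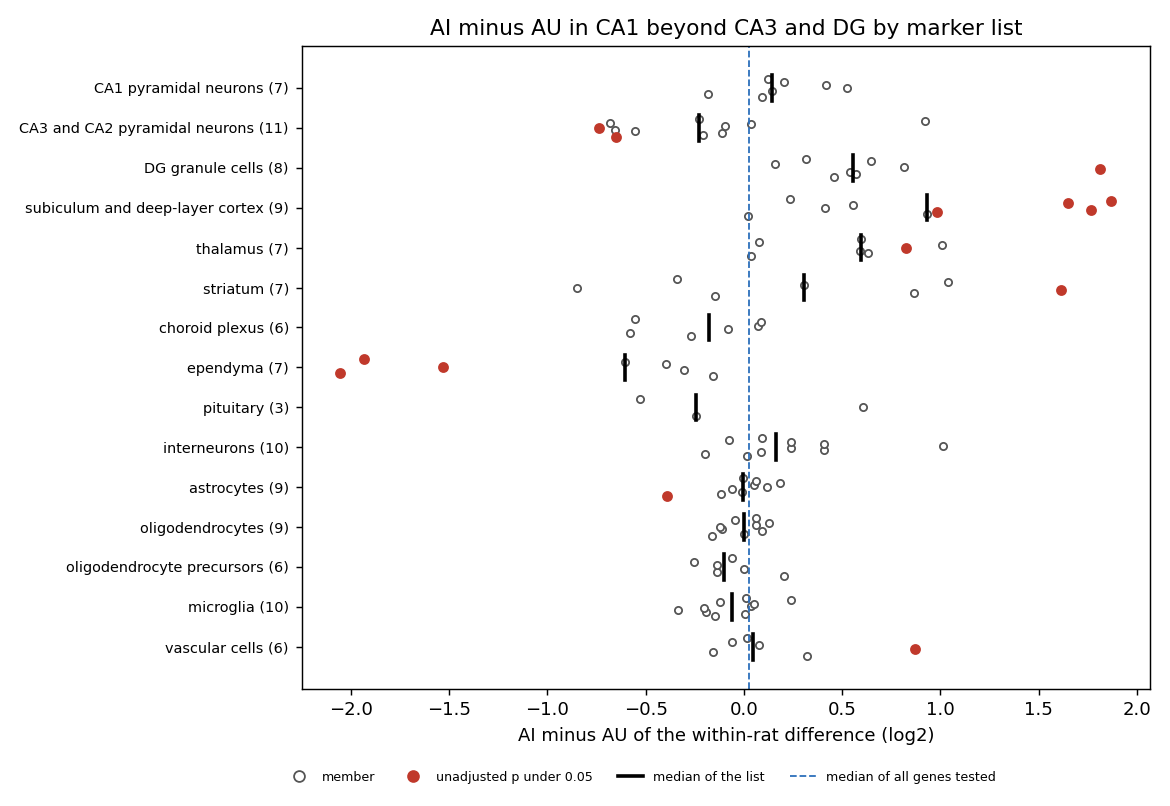
AI minus AU of the within-rat difference (log2, 12 against 12 rats) for each tested marker of 15 cell type or tissue lists (number tested in brackets), with list medians as black bars and the median of all genes dashed. All points of the subiculum, thalamus and granule cell lists lie above 0 and all ependymal points below it.

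Genes that mark CA1 in young rats were followed into the aged groups. In the 10 young rats, 452 genes were higher and 393 lower in CA1 than in CA3 and DG of the same rat at an adjusted p under 0.05 (limma). This reference includes the 5 young CA3 libraries and 1 young DG library that did not score highest for their labelled subfield. In aged rats 295 of the 452 higher genes had an AI minus AU above 0 (median 0.09), and 127 of the 393 lower genes did (median -0.10). Of the 362 genes higher in AI at an unadjusted p under 0.05, 31 (8.56%) were in the young CA1-high list, against 2.76% of all genes tested. Of the 199 lower genes, 30 (15.1%) were in the young CA1-low list, against 2.40% of all.

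Both medians were near 0 within CA1. There the median AI minus AU of the CA1-high genes was 0.02, and that of the CA1-low genes -0.01. The CA3 medians were -0.07 and 0.11 and the DG medians -0.07 and 0.08, farther from 0 than in CA1. The CA1-low median was -0.23 in the R9 rats and 0.046 in the R1-R2 rats, and 0.021 in the 14 rats whose libraries all scored highest for their own subfield, which are the R1-R2 rats and AU rat 7. The CA1-high median was 0.10 and 0.11 in the 2 series and 0.08 in those 14 rats.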

How the data were processed

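The authors aligned the Ion Proton reads to rn5 with TopHat2 and Bowtie2, counted them with featureCounts 1.4.4, and deposited 1 table of 26689 genes as counts divided by DESeq2 size factors, a normalized signal, per the paper and the submitters' processing notes. Division by each library's smallest step gave whole reads for 100% of the deposited values (within 1e-06), which edgeR 4.0.16 and DESeq2 1.42.0 used. Within-rat differences of log2(normalized count + 1) were tested two-sided with limma 3.58.1 (trend) for the 16372 genes averaging 5 or more in aged libraries, with Benjamini-Hochberg adjustment at 0.05. P-values measure the spread between rats. Of 4719 genes with no symbol, 453 were named from the study's tables. Named genes were the 8 with the smallest p in each direction, up to 3 per gene list by p, and the study's 28. Genes named from the marker lists, Gria1, Kcnk10 and Kcnq5 were chosen after their values were seen. The fit was also run on simulated counts with no effect shared by the libraries of a rat, no identifier series and no mixed libraries. That run therefore does not cover these features of the data. Alternatives varied the pseudocount, filter, scaling, tool, block, weights and rats, and 3 sets of rats were added after seeing the data. The main test pairs subfields by rat: same-rat deviations correlated at 0.061 (CA1 with CA3), 0.107 (CA1 with DG) and -0.0070 (CA3 with DG). The comparison, the lists and the alternatives were chosen with earlier results of these data known.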

Additional observations from a re-analysis of the deposited data

Results flagged for a closer look

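In the 10 young rats, 3 named genes had 1 rat far from the others in the within-rat difference, which chance gives in about 1 of 20 groups, and 55 genes were examined. Camk2d had a lowest value of -1.46 against 0.04 to 1.02 in the other rats. Nckap1l had a highest value of 0.92 against -0.25 to 0.31. Gpr183 had a highest value of 2.34 with a lowest of -0.48.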

How the results depend on the processing

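The 0 genes at an adjusted p of 0.05 became 30 with weights of rats by their spread, and stayed 0 in every other alternative. The weights ran from 0.117 to 3.63, lowest in AU rats 5 and 4. Of the 30, 11 were among 55 named genes followed through the alternatives. These were 6 of the 16 leading genes, and Cacnb4, Cacna1i, Adra1d, Rgs6 and Gabrd. The thalamic marker Ntng1, which is not among the 55, was also among the 30. Weights gave 1428 higher and 1297 lower genes at an unadjusted p under 0.05, no filter on low values gave 574 and 310, and all 34 rats in the fit gave 554 higher. Lower genes numbered 338 in the R9 series alone, where 290 were higher, so the share of higher genes was 46.2% against 64.5%. They numbered 331 (359 higher) without rats with a library of median correlation under 0.9, an alternative chosen after seeing the data. With each rat left out in turn, 0 genes passed, with 291 to 445 higher and 150 to 318 lower, the 318 without AI rat 9. The CA1-low median of young rats reversed to 0.046 in the R1-R2 series and 0.021 in the 14 own-subfield rats (the R1-R2 rats and AU rat 7, so nearly 1 set), and Nr4a2 to -0.0045 in R9. The other 2361 of 2362 values of the 55 followed genes kept their direction. These genes were chosen in large part for small p on the same rats, which largely fixes their direction. They do not include all of the study's 28 genes, some of which changed direction. Of the 28, 5 were above 0 with all rats, 10 in the R1-R2 series and 7 in the 14 own-subfield rats. With no replicate block (72 libraries in 6 groups), 0 genes passed, with 365 higher and 166 lower. At 12 rats a group and a median standard error of 0.22, small differences were not detectable. The cause of these shifts was not tested.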
